A study of Bos taurus with 8 samples.

Results

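Glucose and amino acid carriers of 7 solute carrier families (SLC1A, SLC2A, SLC5A, SLC6A, SLC7A, SLC36A and SLC38A) were followed in the bovine endometrium. The genes were chosen by name: every noncontrol probe whose gene name is one of these family prefixes followed by a number was taken, without SLC7A11, and the probe with the highest mean over all arrays stood for its gene. This gave 69 genes with 137 probes, of 17066 gene symbols on the array. Taking standing estrus as day 0, 25 mL was infused into each uterine horn on day 1, and on day 7 endometrium was biopsied from the horn ipsilateral to the corpus luteum. The infusion contained 5 mM methylglyoxal in 4 cows and 0 mM methylglyoxal in 4 further cows. Methylglyoxal is a reactive dicarbonyl that forms as a by-product of glycolysis and modifies proteins. A one-colour Agilent array was run per biopsy on Cy3-labelled RNA, so each value is from a different cow. Breed, age and parity are not given in the labels.

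The endometrium passes sugars and amino acids into the uterine fluid that feeds the embryo before it implants, and carriers of these families are the route across the epithelial membranes. SLC2A members let hexoses pass down their gradient, and SLC5A members couple glucose and other solutes to sodium. SLC1A members carry acidic and small neutral amino acids, SLC7A members cationic and large neutral ones, SLC6A members neurotransmitters and neutral amino acids, and SLC36A and SLC38A members small neutral amino acids. Several SLC7A carriers reach the membrane only with a heavy chain such as SLC3A2.

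Each value is the log2 signal minus the log2 of that array's 75th percentile, so a value of 0 lies at that percentile and each step of 1 is a doubling. Differences are 5 mM minus 0 mM with the standard error (SE) of limma's fit, and group values are means ± SD over 4 cows unless another n is given. On each array between 68.3% and 73.2% of the 43653 noncontrol probes were well above background, and the lowest signals so marked lay between -6.95 and -6.21. Precision is limited by the number of arrays. In a bulk biopsy, fewer cells of a type and less RNA per cell cannot be told apart.

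The biopsies differed in tissue makeup. The mean of 19 measured markers of luminal and glandular epithelium, centred over the 8 arrays, was -3.35 in 5 mM replicate 1 and between 0.36 and 0.47 in the other 5 mM cows, against 0.33 to 0.91 in the 0 mM cows. EPCAM, an epithelial adhesion molecule, had -1.26, 4.54, 4.82 and 4.58 in the 5 mM cows and 4.68, 4.83, 4.50 and 4.33 in the 0 mM cows. The mean of 13 smooth muscle markers was 2.32 in 5 mM replicate 1 and 1.48 in 5 mM replicate 3, with -0.98 and -0.89 in the other 5 mM cows, against 1.16 in 0 mM replicate 1 and -1.39 to -0.83 in the other 0 mM cows. All 19 epithelial markers had lower means in the 5 mM cows and 12 of 13 smooth muscle markers had higher ones, and none of either list passed an unadjusted p of 0.05 in limma. By these markers 5 mM replicate 1 held far less epithelial RNA than the other 7 biopsies. Other marker lists moved as well. All 13 ciliated epithelium markers had lower means in the 5 mM cows (median difference -0.93), with a centred mean of -2.44 to 0.45 in the 5 mM cows and 0.32 to 0.75 in the 0 mM cows. Of 16 leukocyte markers 13 were lower (median -0.91), with a centred mean of -0.82, -0.28, -0.34 and -0.05 in the 5 mM cows and -0.07, 0.58, 0.49 and 0.49 in the 0 mM cows. The B cell marker MS4A1 and the leukocyte gene LCP1, named after their values were seen, did not overlap between the groups. Both had an unadjusted p under 0.05 by limma. They are 2 of 16 leukocyte markers, against 1.54% of all tested probes without overlap and 1.91% at that p. Other lists held such markers too. CLDN3, 1 of 19 epithelial markers, was lower in the 5 mM cows without overlap. TEKT2, 1 of 13 ciliated markers, and HAND2, 1 of 11 stromal fibroblast markers, were lower at an unadjusted p under 0.05 by limma. MS4A1 was well above background in 0 of 4 of the 5 mM cows and 4 of 4 of the 0 mM cows. It met the limit of 4 arrays for testing through the 0 mM cows alone, so it is not a test of a difference. Where a printed difference of a brightest probe moved by over 1.5 times or changed sign without 5 mM replicate 1, the value without it is given. The part of tissue makeup in the other results was not tested.

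Members of all 7 families were detected in the tissue. Of the 69 genes, 36 were well above background on all 8 arrays, 11 on 4 to 7 arrays, 9 on 1 to 3 arrays and 13 on no array. Facilitative glucose carriers (SLC2A) were well above background on all 8 arrays in 8 of 11 genes. All 10 SLC38A genes, the sodium-coupled neutral amino acid carriers, were on at least 4 arrays. The cationic and heavy-chain-linked SLC7A family was split, with 6 of 12 genes on all 8 arrays and 5 on none. The sodium-coupled SLC5A family had 4 of 11 genes on all 8 arrays. SLC5A12 is 1 of these 4 through a probe that shares letters with probes of other genes, and its other probe was on no array.

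**Figure D1:**
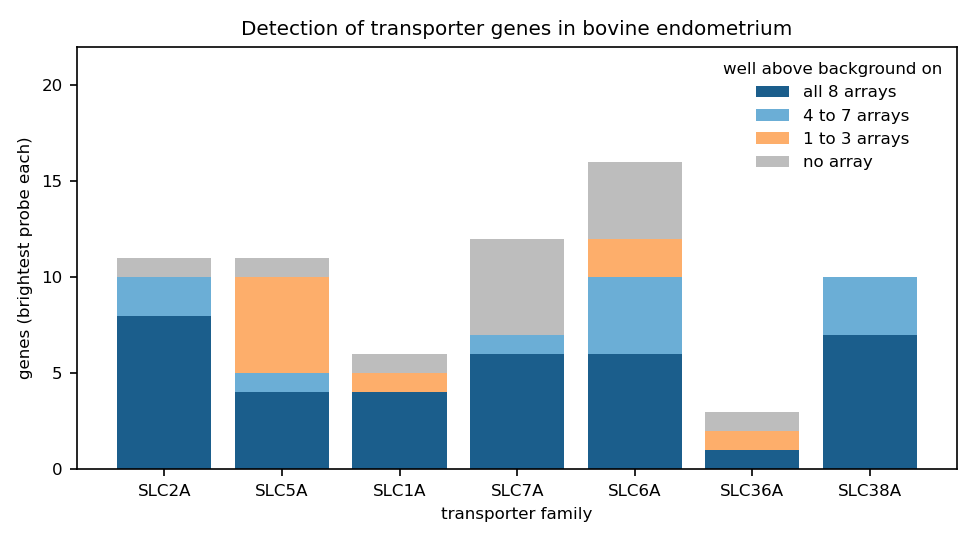
Number of genes (vertical axis) in each transporter family (horizontal axis) by the number of arrays on which the brightest probe was well above background. SLC2A has 8 genes on all 8 arrays, while SLC7A has 5 genes on no array.

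The genes whose brightest probe was well above background on no array include several with known roles elsewhere. They were SLC2A2, the glucose carrier of liver and pancreatic islets, SLC5A10, SLC1A6, the cationic amino acid carriers SLC7A1 and SLC7A2, SLC7A9, SLC7A13, SLC7A14, SLC6A2, which recovers noradrenaline, SLC6A5, SLC6A7, SLC6A18 and SLC36A3. SLC5A1, the sodium-coupled glucose carrier of the intestine, was well above background in 0 of 4 of the 5 mM cows and in 1 of 4 of the 0 mM cows. SLC36A2, a proton-coupled carrier of small amino acids, was so in 1 of 4 of the 5 mM cows and 1 of 4 of the 0 mM cows. For these genes the arrays give only an upper bound, and SLC7A1 has 1 probe.

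Testing required a signal well above background on 4 or more of the 8 arrays. This took in 47 of the 69 genes by their brightest probe, or 68.1%, and 82 of the 137 member probes. Of all probes on the array, with dim ones counted too, it took in 71.3%. No transporter gene was called. At an adjusted p under 0.05 by limma with Benjamini-Hochberg adjustment the count was 0 of 47, and the share called among all 31108 tested probes was 0%. At an unadjusted p under 0.05 the count was again 0 of 47, against 1.91% of all tested probes. Over the member probes tested it was 2 of 82, or 2.44%. Both are dim SLC6A14 probes, described below, that are not a test of a difference. The lowest adjusted p of a transporter gene was 0.913. Of the 47 genes, 22 were higher and 25 lower in the 5 mM cows, so 53.2% were lower, against 46.9% of all tested probes. Their median difference was -0.14, against 0.02 over all tested probes. The groups did not overlap in 2 of 47 genes, or 4.26%, against 1.54% of all tested probes. One, SLC38A2, was higher in the 5 mM cows (1.02% of all probes) and one, SLC1A1, was lower (0.524% of all probes). Both lack values of some cows, and with the scanner-marked spots kept the count was 1.

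**Figure D2:**
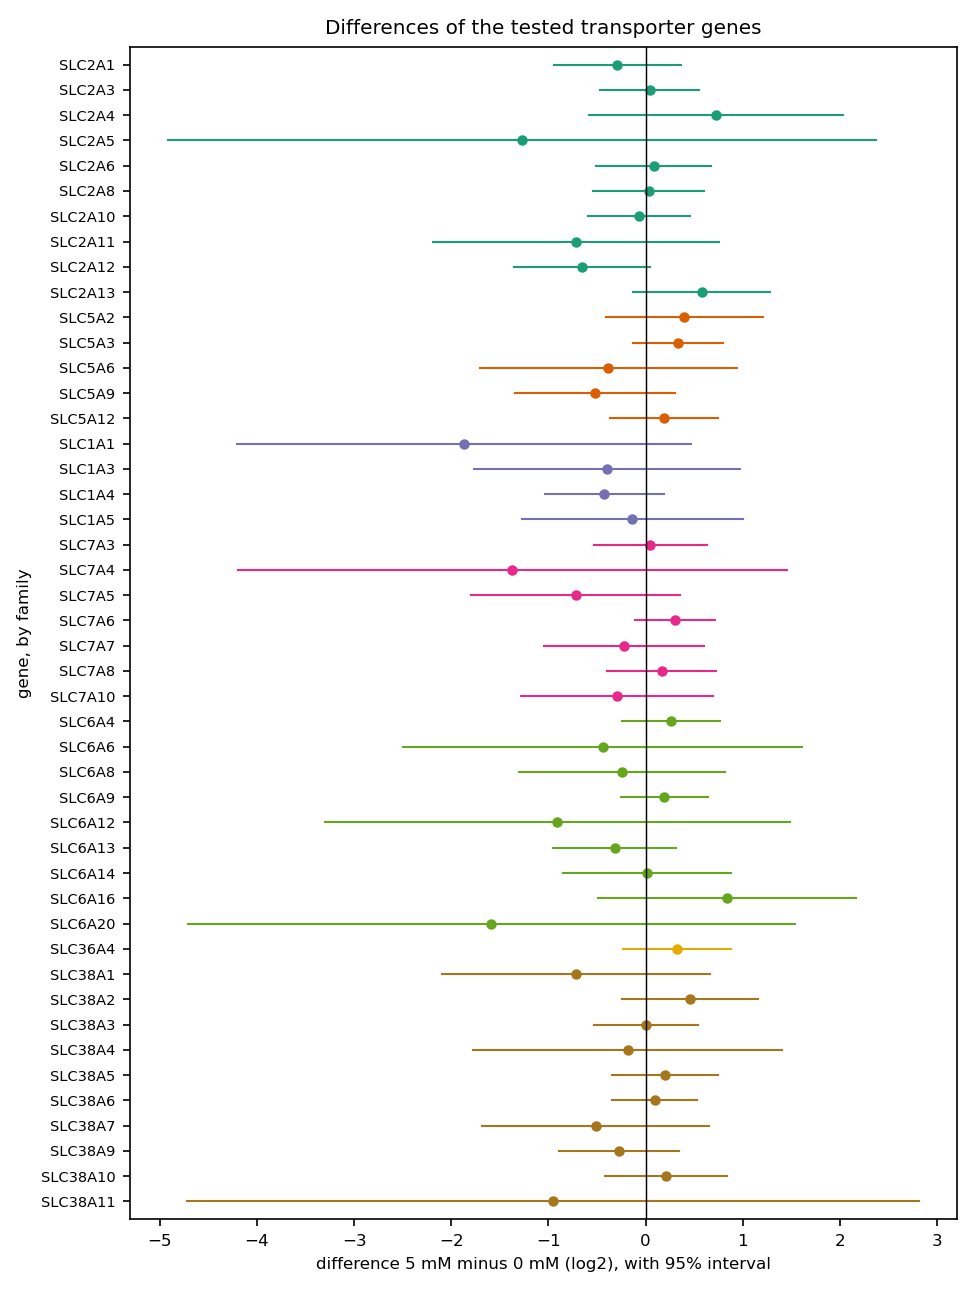
Difference between 5 mM and 0 mM cows (log2, horizontal axis) with its 95% interval for the tested genes named on the vertical axis (coloured by family). Every interval drawn includes 0, and the widest belong to SLC38A11, SLC2A5 and SLC6A20.

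The small negative median did not hold without 5 mM replicate 1. With that cow left out the median difference of the 47 genes was 0.01, and it was between -0.22 and -0.06 when any other cow was left out. With the epithelial marker mean as a covariate it was 0.05, and with the smooth muscle marker mean 0.08. Over the 36 genes well above background on all 8 arrays it was 0.02, and over all 69 genes it was 0.03. The arrays lay on 3 slides, each with cows of both groups. The median was -0.12 with the slide as a block, and within the slides it was -0.06, 0.06 and -0.31. On every slide at least 1 group has only 1 cow, so the values within slides were not tested. By family the medians were -0.02 for SLC2A (5 of 10 lower), 0.19 for SLC5A (2 of 5 lower), -0.41 for SLC1A (4 of 4 lower), -0.23 for SLC7A (4 of 7 lower), -0.12 for SLC6A (5 of 10 lower) and -0.09 for SLC38A (5 of 10 lower). The SLC2A median turned positive with quantile normalization (0.01) and with a median shift (0.04), and the SLC6A (0.08) and SLC38A (0.02) medians with normexp background correction. The SLC7A median was -0.0070 without 5 mM replicate 1, 0.10 with the marker mean of either epithelium or smooth muscle as a covariate, and 0.18 without the 3 cows with the highest smooth muscle means. The SLC6A and SLC38A medians were positive in each of these 4 settings, at 0.06 to 0.16 and 0.05 to 0.11. All 4 SLC1A genes were lower with quantile normalization, a median shift and normexp, but 3 of 4 were lower with the slide as a block, with the smooth muscle covariate, without the 3 cows with high smooth muscle means, without 0 mM replicate 3 and without 5 mM replicate 4, and 2 of 4 within slide 1.

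Among facilitative sugar carriers, SLC2A1, the widely expressed basal glucose carrier (chr3:110249154-110249213 on HGSC Btau_3.1), had 1.54, 2.61, 2.19 and 2.72 in the 5 mM cows, against 2.23, 2.62, 2.91 and 2.47 in the 0 mM cows. The groups overlapped, and 5 mM replicate 1 was the lowest of the 8. The difference was -0.29 (SE 0.28), with a 95% interval of -0.95 to 0.36, and it was -0.05 without that cow. SLC2A3, a high-affinity glucose carrier, averaged 0.49 ± 0.39 in the 5 mM cows and 0.45 ± 0.20 in the 0 mM cows. Its difference was 0.04 (SE 0.22), the values of the groups were mixed, and it was -0.14 without 5 mM replicate 1.

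SLC2A4, the insulin-responsive glucose carrier of muscle and fat, followed another pattern. It had -0.12, -2.56, -0.77 and -2.03 in the 5 mM cows, against -1.17, -2.51, -2.35 and -2.36 in the 0 mM cows. The 3 highest values were those of the 3 cows with the highest smooth muscle marker means, 2 given 5 mM and 1 given 0 mM. These cows also had the highest centred means of 3 measured adipocyte markers, at 1.96, 0.82 and 0.71, against -0.85 to -0.62 in the others. The part of muscle or fat in these values was not tested. The SLC2A4 difference was 0.72 (SE 0.57, unadjusted p = 0.237 by limma) and 0.31 without 5 mM replicate 1. SLC6A15, a carrier of branched-chain amino acids and proline best known from brain, was well above background in 2 of 4 of the 5 mM cows and 1 of 4 of the 0 mM cows, and these were the same 3 cows. It was not tested, and its values were -2.14, -8.34, -2.74 and -6.62 in the 5 mM cows and -3.79, -6.99, -8.04 and -6.16 in the 0 mM cows.

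SLC2A12, a second insulin-linked glucose carrier, had the lowest unadjusted p of all transporter genes. Its values were -4.28, -3.22, -4.12 and -3.56 in the 5 mM cows, against -2.91, -2.81, -3.08 and -3.76 in the 0 mM cows. The only overlap came from 0 mM replicate 4, which lay below 2 of the 5 mM cows. The difference was -0.66 (SE 0.30, unadjusted p = 0.0637 and adjusted p = 0.913 by limma). It stayed negative in every setting tried, and within slides too. SLC2A13, a proton-coupled myo-inositol carrier, had -3.75, -3.61, -4.27 and -4.04 in the 5 mM cows, against -4.79, -5.06, -4.45 and -3.70 in the 0 mM cows. Again 0 mM replicate 4 lay within the range of the 5 mM cows. The difference of 0.58 (SE 0.31, unadjusted p = 0.0962 by limma) turned to -0.46 within slide 3, where that cow is the only 0 mM cow.

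The fructose carrier SLC2A5 varied more within each group than between them. It was well above background in 1 of 4 of the 5 mM cows and 3 of 4 of the 0 mM cows, with -8.46, -2.59, -6.73 and -8.71 in the 5 mM cows and -4.46, -4.03, -8.76 and -4.12 in the 0 mM cows. The highest value and the lowest but one were both in 5 mM cows, and the difference of -1.28 had an SE of 1.58 and was -0.67 without 5 mM replicate 1.

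Of the sodium-coupled carriers, SLC5A3, which takes up myo-inositol, averaged -3.05 ± 0.16 in the 5 mM cows and -3.39 ± 0.35 in the 0 mM cows, a difference of 0.34 (SE 0.20, unadjusted p = 0.13 by limma). SLC5A9, a carrier of mannose and other sugars, differed by -0.52 (SE 0.36), was lowest in 5 mM replicate 1 and was -0.20 without that cow. SLC5A6, which takes up biotin and pantothenate, had -0.28 in 5 mM replicate 1 and 0.77 to 2.46 in the other 5 mM cows, against 0.94 to 2.21 in the 0 mM cows. Its difference of -0.39 (SE 0.57) was 0.09 without that cow.

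The probe that stands for SLC5A12, a lactate and monocarboxylate carrier of kidney and intestine, shares letters with probes of other genes. It lies at chr15:56986374-56986433 on the minus strand of HGSC Btau_3.1, and had 4.87, 3.99, 4.30 and 4.13 in the 5 mM cows, against 4.52, 3.81, 3.97 and 4.23 in the 0 mM cows. The other SLC5A12 probe starts 388 bases away and was well above background on no array. Runs of 16 or more bases of the first probe, between 16 and 27 bases long, occur in probes of 8 other genes (CWC25, YARS2, AGTR1, MBL2, MGC165939, LOC510193, RANBP6 and LOC100139208, as named in the files), 5 on the same strand and 3 on the opposite one. Such a run with at least 1 other gene was found for 14.7% of all probes, and with at least 8 other genes for 0.371%. The longest run and a run at the other end of the probe are shown in capitals because they are the letters it shares, the first with the CWC25 probe and the second with the RANBP6 probe.
SLC5A12 probe, bases 1 to 27: AAACTCCAGTACTTTGGCCACCTCATG
SLC5A12 probe, bases 36 to 60: TGACTCATTTGAAAAGACCCTGATG
The difference of 0.19 (SE 0.24) was 0.01 without 5 mM replicate 1. The level is given for the probe, and which transcripts bound it was not tested.

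In the SLC1A family, SLC1A1, the epithelial carrier of glutamate and aspartate, had the widest difference between groups. The brightest probe (chr8:42132733-42132792, minus strand) had -1.14, 3.24 and 2.70 in 5 mM replicates 1 to 3, against 3.40, 3.44, 3.63 and 3.41 in the 0 mM cows. The spot of 5 mM replicate 4 carried a scanner outlier mark and was left out, so n is 3 and 4. The groups did not overlap, but 5 mM replicate 2 lay just below the lowest 0 mM cow, while replicate 1 lay far below all others. The difference was -1.87 (SE 0.99, unadjusted p = 0.101 and adjusted p = 0.913 by limma), -1.48 with the marked spot kept, and -0.49 without 5 mM replicate 1. Without that cow the unadjusted p by limma was under 0.05, with only 5 mM replicates 2 and 3 left in their group, and the gene was not called. The second probe, measured in all 8 cows, had -6.02, -2.31, -2.55 and -1.33 in the 5 mM cows, against -2.20, -1.75, -2.54 and -1.60 in the 0 mM cows. There the groups overlapped, and the difference was -1.03 (SE 0.91). That probe spans chr8:42136999-42143179 on the same strand, and it is printed because it is the one with a value in every cow.
SLC1A1 second probe: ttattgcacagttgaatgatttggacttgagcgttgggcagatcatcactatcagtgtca

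SLC1A4, a carrier of alanine, serine and cysteine, had 0.56, 1.42, 0.66 and 1.32 in the 5 mM cows, against 0.98, 1.5, 1.81 and 1.38 in the 0 mM cows. The 2 lowest values were in 5 mM cows with high smooth muscle means, and the 0 mM cow with a high mean came next. The difference was -0.43 (SE 0.27, unadjusted p = 0.148 by limma) and -0.28 without 5 mM replicate 1, and a further probe of the gene gave 0.29. SLC1A5, which exchanges glutamine for other neutral amino acids, had -0.21, -0.84, -1.00 and -2.36 in the 5 mM cows, against -1.00, -1.68, -0.12 and -1.06 in the 0 mM cows. Its values were mixed between the groups, with a difference of -0.14 (SE 0.49), which was -0.43 without 5 mM replicate 1. SLC1A3, a glutamate carrier best known from glia, differed by -0.40 (SE 0.59) and by -0.17 without that cow.

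SLC7A5, the large neutral amino acid carrier that pairs with SLC3A2, had -0.55, 1.16, 0.12 and 0.91 in the 5 mM cows, against 0.14, 1.41, 1.78 and 1.19 in the 0 mM cows. Here too the low values of both groups were those of the cows with high smooth muscle means. The difference was -0.72 (SE 0.47, unadjusted p = 0.162 by limma) at the brightest probe and -0.60 at the second one, and at the brightest it was -0.40 without 5 mM replicate 1 and negative in every setting tried. SLC7A8, a related carrier, differed by 0.17 (SE 0.24), and its heavy chain SLC3A2 by -0.08 (SE 0.28), or 0.15 without 5 mM replicate 1. SLC7A6, which exchanges cationic for neutral amino acids, averaged -4.45 ± 0.27 in the 5 mM cows and -4.75 ± 0.18 in the 0 mM cows, a difference of 0.30 (SE 0.18, unadjusted p = 0.124 by limma) that was 0.19 without 5 mM replicate 1. SLC7A7, its close relative, differed by -0.23 (SE 0.36) and by -0.0089 without that cow.

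SLC7A4, which is grouped with the cationic amino acid carriers by sequence, lay far below its other values in 1 biopsy. It had -5.36 in 5 mM replicate 1 and 0.26, -0.67 and 0.70 in the other 5 mM cows, against -0.43, 0.18, 0.17 and 0.48 in the 0 mM cows. The difference of -1.37 (SE 1.22) became -0.01 without that cow. The second probe showed the same array apart, at -7.13, with -3.76, -4.89 and -3.26 in the other 5 mM cows and -4.39 to -3.62 in the 0 mM cows. The brightest probe (chr17:75735157-75735333, minus strand) is shown as the one with the lowest single-cow value relative to its other cows in the family.
SLC7A4 brightest probe: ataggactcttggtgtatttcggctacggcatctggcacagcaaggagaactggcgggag

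**Figure D3:**
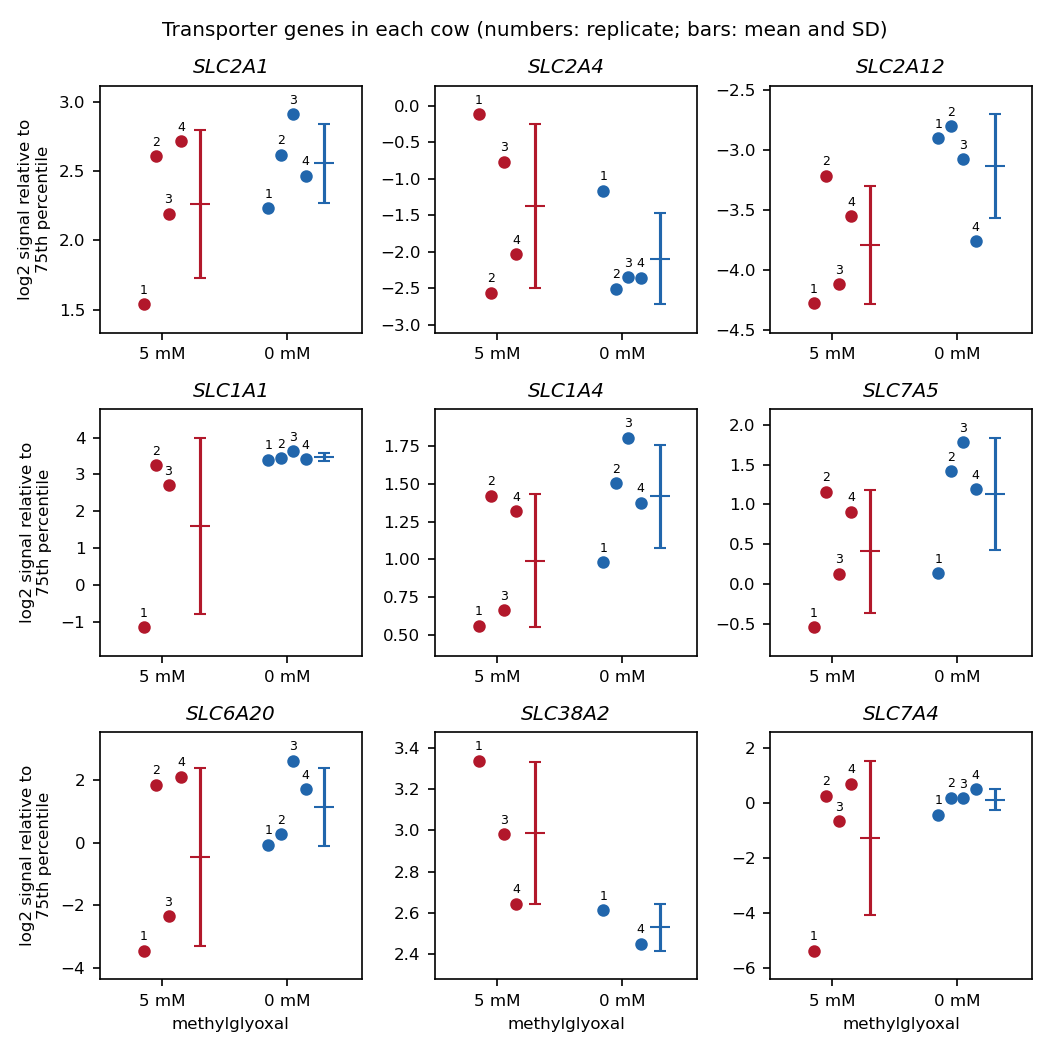
Log2 signal relative to the 75th percentile (vertical axes) in each of the 5 mM and 0 mM cows (horizontal axes, replicate numbers beside the points) for 9 transporter genes, with bars for mean and SD. SLC1A1, SLC6A20 and SLC7A4 have their lowest value in 5 mM replicate 1, where SLC2A4 has its highest.

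In the SLC6A family, SLC6A20, the imino acid carrier that takes up proline, spread most between the cows among the tested members. It had -3.44, 1.85, -2.34 and 2.12 in the 5 mM cows, against -0.06, 0.27, 2.62 and 1.71 in the 0 mM cows. The 3 cows with high smooth muscle means had the 3 lowest values, in both groups, and the difference of -1.59 had an SE of 1.35. It was -0.59 without 5 mM replicate 1 and 0.45 without those 3 cows. SLC6A16, a member with no assigned substrate, differed by 0.84 (SE 0.57), and 0 mM replicate 2 held its lowest value at -7.45. The other named members of the family, the creatine carrier SLC6A8 and the glycine carrier SLC6A9, differed by -0.24 (SE 0.46) and 0.19 (SE 0.20), and that of SLC6A8 was 0.0088 without 5 mM replicate 1.

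SLC6A14, a carrier that takes up neutral and cationic amino acids with sodium and chloride, gave different results at different probes. Its brightest probe had -2.99, -3.58, -2.64 and -2.20 in the 5 mM cows, against -2.55, -2.83, -3.70 and -2.38 in the 0 mM cows, a difference of 0.01 (SE 0.38) that was 0.06 without 5 mM replicate 1. A dimmer probe, A, had -6.68, -6.12, -6.16 and -6.16 in the 5 mM cows, against -5.94, -5.00, -4.34 and -6.00 in the 0 mM cows. All 4 of the 5 mM cows were lower than all 4 of the 0 mM cows at that probe, and it was well above background in 1 of 4 of the 5 mM cows and 4 of 4 of the 0 mM cows. The measured difference was -0.96 (SE 0.38, adjusted p = 0.913 by limma). Another dim probe, B, had -6.88, -7.02, -7.42 and -6.73 in the 5 mM cows, against -6.18, -6.31, -6.41 and -6.60 in the 0 mM cows, again without overlap. It was well above background in 0 of 4 of the 5 mM cows and in 4 of 4 of the 0 mM cows, so the 5 mM group has only a bound, taken against the lowest signal well above background on each of its arrays. On that footing it was at least 1.06-fold lower in the 5 mM cows (measured means -7.01 ± 0.30 in the 5 mM cows and -6.38 ± 0.17 in the 0 mM cows, adjusted p = 0.913 by limma). Probes A and B would have met the 4-array limit for testing through the 0 mM cows alone, and most of their 5 mM values were not well above background, so neither is a test of a difference. Of the other probes of the gene, 1 differed by -0.34 (SE 0.24) and 1 was well above background on no array. The mean over the tested probes of SLC6A14 differed by -0.48. It takes in probes A and B, so it is not a test of a difference either. The 3 probes are printed because the finding differs between them, the first as its opening 30 of 60 bases and the others whole, and the array files give no position for them.
SLC6A14 brightest probe, bases 1 to 30: ttcagttattcttaaggttcttaacatggg
SLC6A14 probe A: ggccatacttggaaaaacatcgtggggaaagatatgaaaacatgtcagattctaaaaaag
SLC6A14 probe B: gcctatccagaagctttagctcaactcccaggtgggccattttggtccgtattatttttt
Which transcripts each of them binds was not tested.

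Disagreement between probes was not limited to SLC6A14. Of the 38 genes with more than 1 probe, 22 had at least 2 tested ones, and in 7 of these a further probe differed in sign from the brightest. They were SLC2A3, SLC2A4, SLC2A8, SLC1A4, SLC6A9, SLC6A14 and SLC38A10. In SLC2A3, SLC2A4, SLC2A8 and SLC6A9 each probe of the other sign had a difference smaller than its SE, such as -0.0091 (SE 0.61) for SLC2A4. There the sign alone is no sign of conflict between probes. SLC38A10, an amino acid carrier whose role in the uterus is little described, spanned most, with 0.21 at the brightest probe and from -0.56 to 1.03 at the others. Without 5 mM replicate 1 its brightest probe gave 0.43. In the other 15 genes the probes gave the same sign, among them SLC1A1, SLC7A4, SLC7A5 and SLC5A6.

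**Figure D4:**
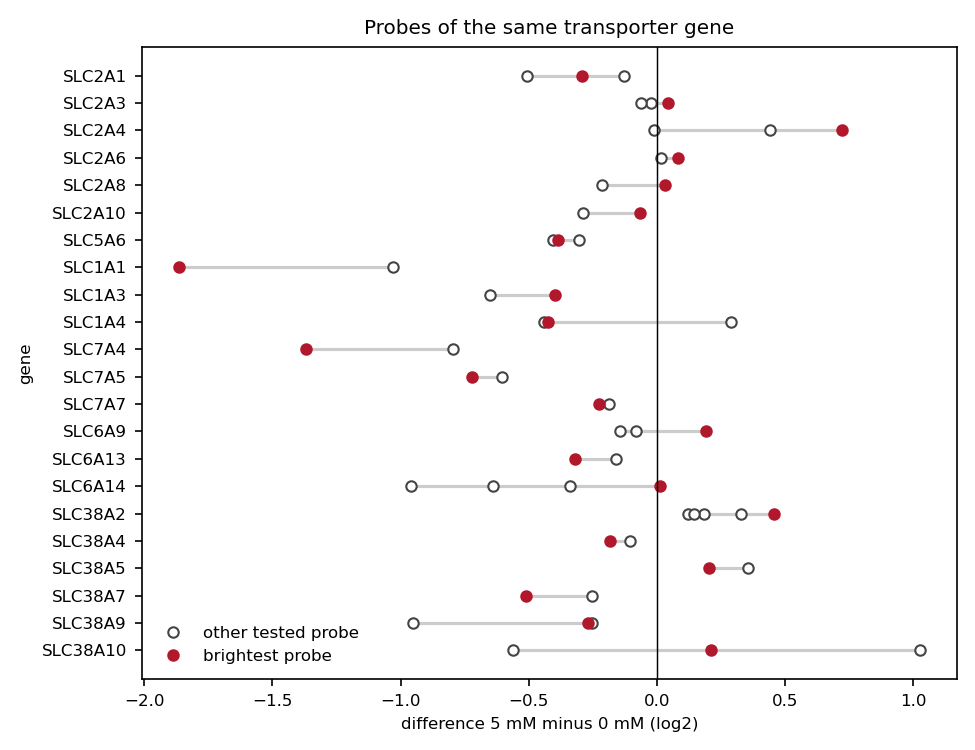
Difference between 5 mM and 0 mM cows (log2, horizontal axis) at each tested probe of the 22 genes with at least 2 tested probes (vertical axis). Filled points are the brightest probe and open points the others. The probes of SLC6A14 run from 0.01 down to -0.96, and those of SLC38A10 lie on both sides of 0.

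The probes named SLC6A9, the glycine carrier, come from more than 1 place. Most carry the accession of SLC6A9, and 3 now carry that of LOC515755. A chromosome 3 probe (chr3:108941865-108941924, plus strand) and a chromosome 13 probe (chr13:37698755-37698814, minus strand) share a run of 50 bases, and the opening bases of both are shown with the shared run in capitals.
SLC6A9 chromosome 3 probe, bases 1 to 30: cgcACCACTAGGATTTTAAAGTCCATAGGT
SLC6A9 chromosome 13 probe, bases 1 to 30: ccatctgcgtACCACTAGGATTTTAAAGTC
The values of these probes ran together, with -1.04, -1.90, -1.08 and -1.07 at the first and -1.35, -2.02, -1.26 and -1.15 at the second in the 5 mM cows. In the 0 mM cows the first had -1.33, -1.33, -1.04 and -1.06 and the second -1.52, -1.48, -1.15 and -1.06. The copies cannot be told apart by these probes.

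SLC38A2, the sodium-coupled neutral amino acid carrier that cells raise when amino acids are scarce, had groups that did not overlap. Its brightest probe (chr5:37076828-37076887, plus strand) had 3.34, 2.98 and 2.65 in 5 mM replicates 1, 3 and 4, against 2.61 and 2.45 in 0 mM replicates 1 and 4. The spots of 3 arrays carried a scanner outlier mark and were left out, so n is 3 and 2. The difference was 0.46 (SE 0.27, unadjusted p = 0.155 and adjusted p = 0.913 by limma), and 0.28 without 5 mM replicate 1. At the other 4 probes, each measured in all 8 cows, the groups overlapped, and the differences were between 0.12 and 0.33.

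SLC38A1, a close relative of SLC38A2, had -6.61, -3.54, -5.14 and -4.17 in the 5 mM cows, against -4.20, -3.79, -4.29 and -4.29 in the 0 mM cows. One cow, 5 mM replicate 1, again stood lowest, and the difference of -0.72 (SE 0.60) was -0.14 without it. SLC38A7, a lysosomal glutamine carrier, had -1.10 in 5 mM replicate 1 and 0.26 to 1.19 in the other 5 mM cows, against 0.18 to 1.33 in the 0 mM cows. Its difference of -0.51 (SE 0.51) was -0.03 without that cow. SLC38A11 ran from -8.41 to -1.86 in the 5 mM cows and from -6.40 to -2.52 in the 0 mM cows, with a difference of -0.95 (SE 1.63) that was 0.10 without 5 mM replicate 1, and was well above background in 2 of 4 of the 5 mM cows and 4 of 4 of the 0 mM cows. SLC36A4, a carrier of proline and tryptophan, averaged -5.91 ± 0.42 in the 5 mM cows and -6.23 ± 0.25 in the 0 mM cows, a difference of 0.32 (SE 0.24, unadjusted p = 0.216 by limma) that was 0.16 without 5 mM replicate 1.

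One cow lay at the extreme of many members. Among the 45 tested genes with a value on all 8 arrays, 5 mM replicate 1 held the lowest value in 19, or 42.2%, against 28.2% of all tested probes with 8 values. It held the highest value in 11, or 24.4%, against 34.0% of all such probes. No other array held the lowest value of more than 7 of the 45 genes. The median of the 47 genes, each centred over the arrays, was -0.47, 0.21, -0.08 and 0.18 in the 5 mM cows, against -0.18, -0.01, 0.21 and 0.32 in the 0 mM cows. Differences of at least 2-fold were found for SLC1A1, SLC2A5, SLC6A20 and SLC7A4, 4 of 47 genes or 8.51%, against 5.31% of all tested probes. All 4 were lower in the 5 mM cows and none passed the test.

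**Figure D5:**
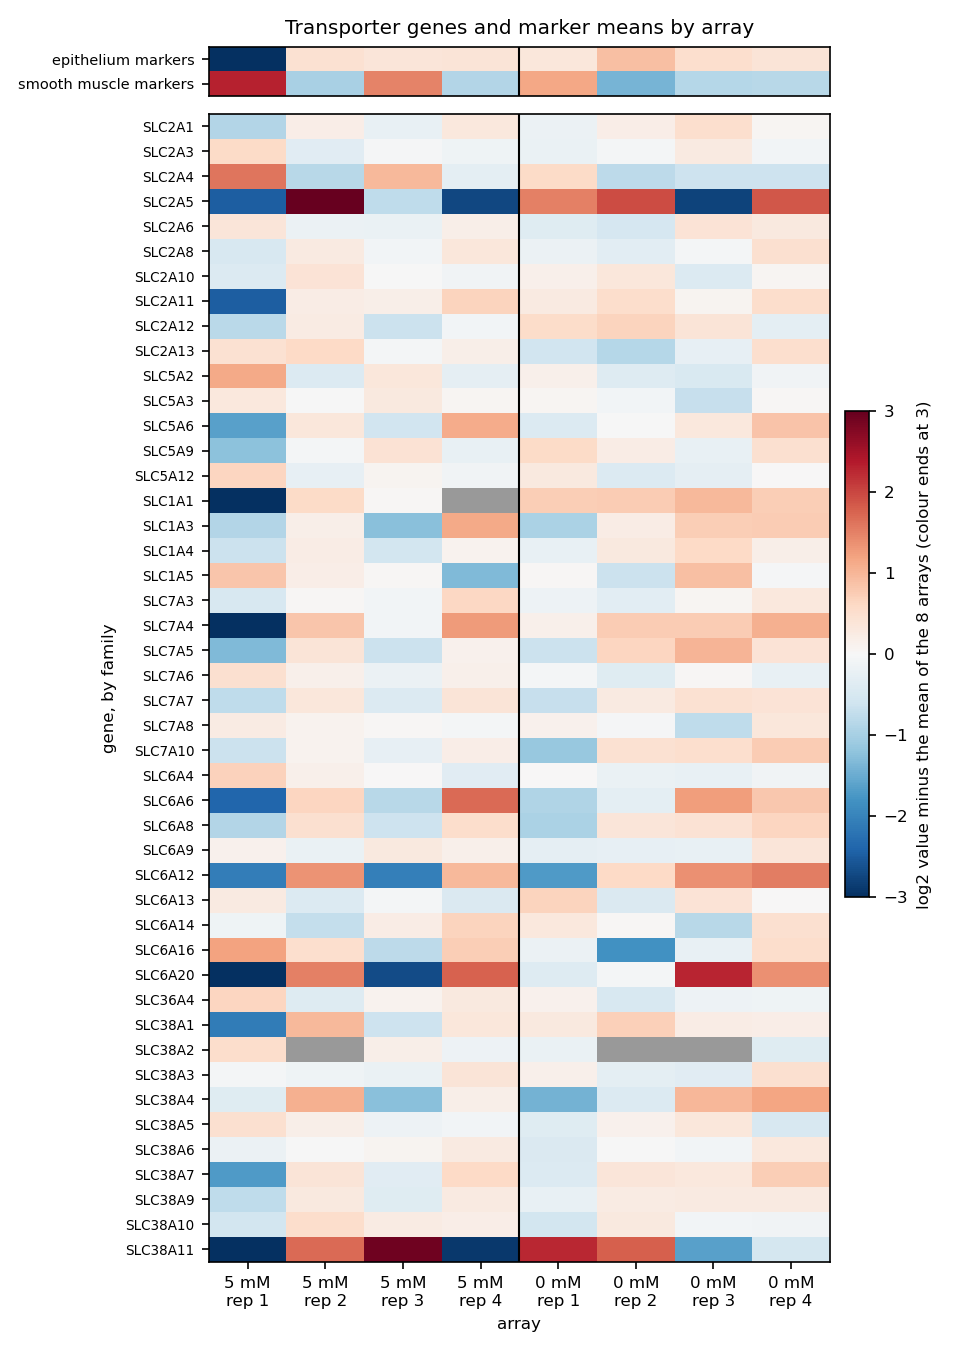
Log2 value minus the mean of the 8 arrays (colour, ending at 3 on either side) for the tested genes named on the vertical axis, with the epithelial and smooth muscle marker means above, over the 5 mM arrays (left of the line) and the 0 mM arrays (right); grey marks a spot left out. Among the genes with a value on all 8 arrays, the 5 mM replicate 1 column holds the lowest value of 19. It also holds the lowest epithelial marker mean.

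Genes around the carriers gave no call either. Of heavy chains and accessory proteins 6 were measured, and 1 was higher and 5 lower (median -0.11). Of other carriers of sugars, amino acids, peptides and monocarboxylates 12 were measured, with 4 higher and 8 lower (median -0.18). Of 25 genes that control nutrient uptake 13 were higher and 12 lower (median 0.03), and of 17 first enzymes of the carried substrates 11 were higher and 6 lower (median 0.07). None of the 60 passed an unadjusted p of 0.05 in limma, against 1.91% of all tested probes.

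SLC50A1, a sugar carrier of internal membranes, had the lowest p among these genes. Its values were -2.10, -0.11, -2.08 and -1.36 in the 5 mM cows, against -0.39, -0.02, 0.16 and -1.25 in the 0 mM cows. The low values of the 5 mM group overlapped the 0 mM group through 5 mM replicate 2 and 0 mM replicate 4, and the difference was -1.03 (SE 0.50, unadjusted p = 0.0726 by limma). SLC15A1, the oligopeptide carrier of the intestine, differed by -0.87 (SE 0.54), or -0.28 without 5 mM replicate 1, with -4.70 in 5 mM replicate 1 and -2.73 to -2.05 in the other 5 mM cows, against -2.18 to -1.87 in the 0 mM cows. PDZK1, a scaffold for apical carriers, was at 0.23 in 5 mM replicate 1 and 4.78 to 6.67 in the other 5 mM cows, against 5.11 to 6.17 in the 0 mM cows, and its difference of -1.27 (SE 1.29) was 0.15 without that cow. BSG, the chaperone of monocarboxylate carriers, differed by -0.33 (SE 0.35), or -0.02 without that cow. Among regulators, AKT2, a kinase of insulin signalling, differed by 0.34 (SE 0.23) and ARRDC4, a relative of the glucose uptake inhibitor TXNIP, by -0.54 (SE 0.36), and these were 0.19 and -0.22 without that cow. Among enzymes, ASNS, which makes asparagine, differed by 0.30 (SE 0.21).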

How the data were processed

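Total RNA of 8 endometrial biopsies was measured on one-colour Agilent arrays (design 023647). Per the file headers, probe coordinates are on HGSC Btau_3.1, and the deposited intensity values are background-subtracted processed signals from Feature Extraction 11.5.1.1. The submitters' processing notes name version 10.5.1.1. The deposited value table holds log2 values, and correlated at r of at least 0.99951 across probes with the values used here after centring each probe. It was one of the alternatives.

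Control spots and scanner-marked outlier spots were removed (461 missing values among tested probes), and the log2 of each array's 75th percentile was subtracted. Probes well above background on at least 4 of 8 arrays were tested with limma 3.58.1 (lmFit, then eBayes with no trend, in R 4.3.3), and p-values of all 31108 probes were adjusted together (Benjamini-Hochberg). The design gives each group 4 cows, and the median SE was 0.24. The fit was tested on simulated data. Of the 137 member probes, 133 kept the file's symbol in RefSeq (ARS-UCD2.0). No genome of the build was used, so no exon or untranslated region is named.

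The members and lists were chosen with earlier results of these data known. Named genes were 14 carriers of ruminant endometrium, the 2 members of each family with the lowest p, any at p under 0.05 and any without overlap at 2-fold or more, which gave 23 genes, 19 of them tested. Another 14 were named after their values were seen, as were probes that disagreed. Of each further list the 2 genes with the lowest p were named. The results of 2 genes that these rules name are not reported here, though the counts include them. Alternatives were other normalizations, background corrections and filters, trend and robust eBayes, marker means as covariates, the mean over probes, slide and replicate blocks, and leaving out each cow. Keeping marked spots and leaving out the 3 cows with the highest smooth muscle marker means were chosen after seeing the data. Replicate numbers were not used to pair cows.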

Additional observations from a re-analysis of the deposited data

Results flagged for a closer look

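Among 71 groups with a value in all 4 cows, over the named genes whether tested or not, 6 had 1 cow far from the other 3. The rule flags about 1 in 20 groups by chance. The named genes include 14 named after their values were seen, so the count cannot be read against that share. Of the flagged genes, only SLC2A4 was named by rule. SLC2A11, a facilitative sugar carrier, was at -8.28 in 5 mM replicate 1, below the level well above background, and between -5.62 and -5.14 in the other 5 mM cows. Its difference was -0.72 (SE 0.64), and -0.0073 without that cow. SLC2A4 was at -1.17 in 0 mM replicate 1 and between -2.51 and -2.35 in the other 0 mM cows. SLC7A7 was at 0.33 in 0 mM replicate 1 and between 1.30 and 1.5 in the others. SLC6A8 was at -3.47 in 0 mM replicate 1 and between -2.14 and -1.88 in the others. SLC6A9 was at 0.26 in 0 mM replicate 4 and between -0.38 and -0.32 in the others. SLC2A5 was at -8.76 in 0 mM replicate 3 and between -4.46 and -4.03 in the others. The flagged values of SLC2A11, SLC2A4, SLC7A7 and SLC6A8 are from cows with high smooth muscle marker means, and the part of tissue makeup in them was not tested.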

How the results depend on the processing

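No transporter gene and no gene of the further lists was called at an adjusted p under 0.05 in any setting run. A limit of 0.1 was tried in the main fit alone and gave no call, since the lowest adjusted p of all tested probes there was 0.913 by limma. The count at an unadjusted p under 0.05, 0 in the report, was 1 with normexp (SLC1A1), the slide as a block (SLC7A5), the epithelial covariate (SLC38A10), the smooth muscle covariate (SLC6A13) and the mean over probes (SLC6A14). The SLC6A14 mean takes in probes A and B, which met the limit for testing through the 0 mM cows alone. The count was 0 to 3 when each cow was left out. The 3 came without 5 mM replicate 2 (SLC1A1, SLC2A12 and SLC36A4), and 2 came without 0 mM replicate 1 (SLC7A5, SLC7A10) or 0 mM replicate 4 (SLC2A12, SLC2A13). Without 5 mM replicate 1 the count was 1 (SLC1A1, with values of 5 mM replicates 2 and 3 left). The count of genes without overlap, 2 in the report, was 1 with quantile normalization, normexp, the deposited value table and marked spots kept, 7 without the 3 cows with the highest smooth muscle means, where fewer cows are compared, and 2 to 5 when each cow was left out. The median difference was between -0.22 and 0.01 when each cow was left out, and -0.14 with the replicate block, which changed no call. Same-numbered cows of the 2 groups correlated at 0.40, 0.36, -0.30 and 0.31 in their deviations, and 3 of 4 correlated best with their own number, a hint of shared variation from the data. Both cows numbered 1 lay on slide 1, both numbered 2 on slide 2 and both numbered 4 on slide 3. Those numbered 3, the negative pair, lay on slides 2 and 3. A shared number and a shared slide therefore cannot be told apart here. No label pairs the numbers and 1 pair was negative, so they were not taken as pairs. Over all tested probes the block gave 1221 at an unadjusted p under 0.05, against 595 without it, and 0 adjusted calls.

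Of 798 alternative values of 31 named, tested genes, 732 kept their direction and 66 turned it, none became significant, and 10 genes never turned. The cause of each turn was not tested. The gene differences that turned were 0.030 for SLC6A8 with normexp. With the slide as a block they were 0.013 for SLC1A5 and -0.25 for SLC6A14. With the epithelial covariate they were -0.16 for SLC2A3, 0.16 for SLC7A4, 0.034 for SLC38A7, 0.15 for SLC5A6, -0.032 for SLC5A12, 0.036 for SLC7A7, 0.080 for SLC2A11, 0.065 for SLC6A8 and 0.26 for SLC38A11. With the smooth muscle covariate they were -0.063 for SLC2A3, -0.049 for SLC6A14, 0.14 for SLC5A6, -0.019 for SLC5A12, 0.16 for SLC1A3, 0.13 for SLC7A7 and 0.23 for SLC6A8. Without the 3 cows with the highest smooth muscle means they were -0.27 for SLC2A3, 0.27 for SLC38A1, 0.45 for SLC6A20, 0.20 for SLC7A4, 0.023 for SLC38A7, 0.33 for SLC5A6, 0.086 for SLC1A3, 0.051 for SLC2A11 and 0.021 for SLC6A8. With the mean over probes they were -0.014 for SLC2A3, -0.48 for SLC6A14 and -0.011 for SLC6A9. Within slide 1 they were 0.79 for SLC1A5, -0.44 for SLC6A14, 0.068 for SLC1A3 and 0.086 for SLC6A8. Within slide 2 they were -0.44 for SLC2A3, -0.13 for SLC2A4, 0.059 for SLC1A5, -0.31 for SLC6A14, -0.058 for SLC36A4, 0.50 for SLC38A1, 0.41 for SLC6A20, 0.083 for SLC7A4, 0.053 for SLC38A7, 0.18 for SLC5A6, 0.069 for SLC6A8, 3.81 for SLC2A5 and 1.62 for SLC38A11. Within slide 3 they were -0.044 for SLC6A14, -0.36 for SLC7A8, -0.46 for SLC2A13, -0.54 for SLC6A16, -0.014 for SLC5A12, -0.13 for SLC6A9 and 0.54 for SLC38A11. Leaving out each cow gave ranges that crossed 0 for SLC1A5 (-0.43 to 0.28), SLC2A3 (-0.14 to 0.17), SLC5A6 (-0.82 to 0.094), SLC6A14 (-0.27 to 0.26), SLC6A8 (-0.60 to 0.0088), SLC7A8 (-0.06 to 0.31) and SLC38A11 (-2.08 to 0.10). Slide 1 holds 1 cow of each group. On slide 2 the only 5 mM cow is replicate 2, and on slide 3 the only 0 mM cow is replicate 4. No test was therefore run within any slide.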
